A study of Mus musculus with 4 samples.

Results

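The genes described here encode the oxygen-sensing machinery of the cell, the hypoxia-inducible factors (HIFs) that it controls, and the glucose transporters, glycolytic enzymes and other genes that these factors are known to induce. They were named in a list of 42 genes, of which 40 had a value among the 19938 genes measured. Gpi1 and Eno1, which encode glucose-phosphate isomerase and an enolase, had no probe set named here by exactly 1 gene symbol and were not analysed. C57BL/6N mice gave the bone marrow for the RNA, and the labels name no mutant allele in either group. The LPS group (replicates 1 and 2) had received 50 µg of lipopolysaccharide, the endotoxin of Gram-negative bacteria, as equal parts from E. coli K12 and S. minnesota in 1 intraperitoneal dose. The PBS group (replicates 1 and 3) had received phosphate-buffered saline by the same route. Marrow of both groups was analysed 8 h after injection, and the age of the mice is not stated in the sources used here. Each sample was measured on 1 GeneChip Mouse Gene ST array, with n = 2 in each group, and every level below is a log2 value after robust multi-array averaging (RMA) by the authors. Nothing in the labels says whether a sample was 1 mouse or a pool, so the p-values measure the spread between these samples, which may be partly technical.

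HIFs are pairs of an oxygen-regulated alpha subunit and a stable partner. With enough oxygen, prolyl hydroxylases mark the alpha subunit, and the von Hippel-Lindau protein then directs it to degradation, so that HIF activity is set largely at the protein level. Bone marrow has regions of low oxygen, and bacterial products are also known to raise HIF activity in macrophages and neutrophils, which rely heavily on glycolysis.

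After LPS, 5 of the 40 measured genes rose and 0 fell at a Benjamini-Hochberg adjusted p under 0.05 in limma. The 5 were Adm, a vasodilator peptide gene, Hif1a, an alpha subunit gene, Slc2a1, a glucose transporter gene, Pfkp, a phosphofructokinase gene, and Vegfa, the endothelial growth factor gene. Their rises were small, between 0.43 and 0.70 on the log2 scale, or 1.35-fold to 1.62-fold. Among all genes tested 2.39% rose, 1.27% fell and 3.66% changed in either direction, against 12.5% of these genes that rose. Most of the list did not move together: 21 genes had a positive and 19 a negative log2 difference, and the median was 0.03, against -0.01 over all genes. At an unadjusted p under 0.05 in limma, 12 of the 40 were higher and 3 lower, against 1417 higher and 1732 lower among all 19938 genes. With every probe set of the table in the fit, whether named or not, 0 of the 40 passed. In that fit 355 of the 35556 probe sets rose and 63 fell. The adjusted p of the 5 genes in limma then lay between 0.0576 for Adm and 0.158 for Vegfa. Fits that left out 1 array kept only 1 array in a group. Their spread came from the other pair alone, so only their differences are given below.

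In 27 of the 40 genes the arrays of the groups did not overlap, or 67.5%, against 44.9% of all genes. The LPS pair was the higher in 14 (20.4% of all genes did so) and the lower in 13 (24.5% of all genes). No group mean of a measured member lay under 6.72, the highest lower quartile of the 4 arrays. The plot of all 40 differences shows the 5 genes that passed on the right, with genes on both sides of 0 in every role.

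**Figure D1:**
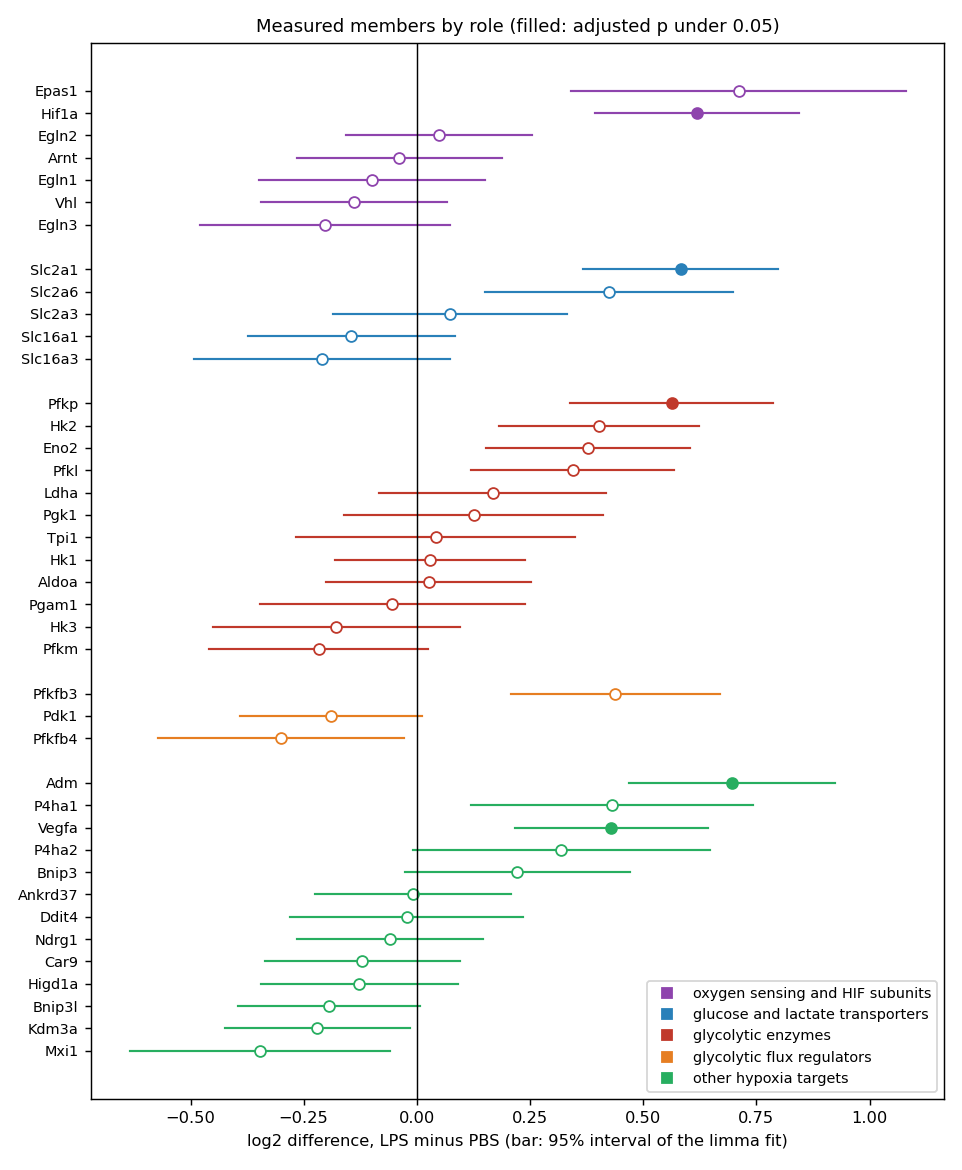
Log2 difference, LPS minus PBS, of the 40 measured genes, ordered within 5 roles (colours). Points are estimates of the limma fit, bars its 95% intervals, and filled points passed at an adjusted p under 0.05; the 5 filled points lie between 0.43 and 0.70, and the lowest point, Mxi1, lies at -0.35.

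The regions upstream of the start sites of the 5 risen genes are shown because HIFs bind short motifs in such DNA, together with those of Ldha and Pgk1, well-known HIF targets whose levels did not pass. Ldha and Pgk1 were picked after their values were seen. The windows are the 250 bases before the start in the RefSeq promoter table (GRCm38.p6), the entry listed first for each gene, written 5′ to 3′ on the strand of the gene. They lie at chr12:73907617-73907866 (plus strand) for Hif1a, chr4:119108495-119108744 (plus strand) for Slc2a1, chr13:6648772-6649021 (minus strand) for Pfkp, chr7:110627407-110627656 (plus strand) for Adm, chr17:46032378-46032627 (minus strand) for Vegfa, chr7:46845554-46845803 (plus strand) for Ldha and chrX:106186850-106187099 (plus strand) for Pgk1. Capitals mark the core of the hypoxia response element (ACGTG or GCGTG, on either strand) and, in Vegfa and Pgk1, a match to the degenerate NF-kappaB motif.
Hif1a: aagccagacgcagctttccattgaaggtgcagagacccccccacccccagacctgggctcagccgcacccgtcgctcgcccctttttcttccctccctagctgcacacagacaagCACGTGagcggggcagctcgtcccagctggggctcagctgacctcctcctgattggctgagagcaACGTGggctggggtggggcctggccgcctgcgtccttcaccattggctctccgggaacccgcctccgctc
Slc2a1: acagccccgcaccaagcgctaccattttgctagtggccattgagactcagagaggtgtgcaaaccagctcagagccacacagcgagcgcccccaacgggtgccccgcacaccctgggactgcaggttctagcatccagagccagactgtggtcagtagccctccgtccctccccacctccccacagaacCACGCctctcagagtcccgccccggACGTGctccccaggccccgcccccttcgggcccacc
Pfkp: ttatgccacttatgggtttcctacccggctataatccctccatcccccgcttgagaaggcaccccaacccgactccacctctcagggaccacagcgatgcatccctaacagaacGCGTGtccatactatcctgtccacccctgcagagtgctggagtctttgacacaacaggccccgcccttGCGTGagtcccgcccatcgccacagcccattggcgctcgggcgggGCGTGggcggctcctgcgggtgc
Adm: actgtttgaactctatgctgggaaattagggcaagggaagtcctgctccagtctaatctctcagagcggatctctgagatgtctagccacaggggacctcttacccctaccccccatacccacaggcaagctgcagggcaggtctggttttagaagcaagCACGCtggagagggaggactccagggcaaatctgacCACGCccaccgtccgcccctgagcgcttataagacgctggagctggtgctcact
Vegfa: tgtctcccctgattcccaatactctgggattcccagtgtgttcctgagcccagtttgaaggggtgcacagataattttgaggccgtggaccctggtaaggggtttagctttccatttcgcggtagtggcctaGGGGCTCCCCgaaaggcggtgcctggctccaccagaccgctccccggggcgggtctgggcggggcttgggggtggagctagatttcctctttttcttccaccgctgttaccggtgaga
Ldha: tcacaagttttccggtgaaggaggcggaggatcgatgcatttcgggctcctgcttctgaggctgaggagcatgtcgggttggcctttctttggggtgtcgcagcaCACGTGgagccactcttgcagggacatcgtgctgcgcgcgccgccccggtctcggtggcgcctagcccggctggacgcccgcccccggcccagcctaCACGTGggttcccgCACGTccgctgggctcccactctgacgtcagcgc
Pgk1: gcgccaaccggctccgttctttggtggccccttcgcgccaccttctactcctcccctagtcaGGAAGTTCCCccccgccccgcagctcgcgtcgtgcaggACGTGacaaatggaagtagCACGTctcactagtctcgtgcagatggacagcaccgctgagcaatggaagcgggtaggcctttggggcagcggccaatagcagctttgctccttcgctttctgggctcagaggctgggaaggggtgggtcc

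The hypoxia core stood 3 times in the Hif1a window, 2 times in that of Slc2a1, 3 times in that of Pfkp and 2 times in that of Adm, counting both strands, and 0 times in that of Vegfa. In Hif1a 2 of the 3 matches are the palindrome CACGTG, an E-box, read on both strands. Ldha held 5 matches, 4 of them from 2 such palindromes, and Pgk1 held 2. Of the 38 listed genes with a promoter in the table, which include the unmeasured Gpi1 and Eno1, 30 held a core, or 78.9%. Among the 15614 measured genes with a promoter 46.3% did. The list holds genes known to be induced by HIFs, so this share describes the list and not the response to LPS. Of the 5 genes that rose 4 held a core, or 80%. Among glycolytic enzymes 9 of 14 promoters held a core and among other hypoxia targets 9 of 11. The NF-kappaB motif stood in 3 of the 38 promoters, or 7.89%, against 7.87% of measured genes. A match describes letters in a short window, and whether HIF binds there in marrow was not measured.

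Oxygen sensing and HIF subunits came first in the pathway, and the alpha subunit genes Hif1a and Epas1 had the largest differences there. Of these only Hif1a passed, and no difference between genes was tested. Hif1a, the widely expressed alpha subunit, had 11.26 and 11.24 in LPS replicates 1 and 2, against 10.54 and 10.72 in PBS replicates 1 and 3. The LPS arrays lay close together and clear of both PBS arrays. The rise was 0.62 log2 (SE 0.0967, 95% interval 0.39 to 0.84), or 1.54-fold, with an adjusted p of 0.0138. With 1 array left out it lay between 0.53 and 0.71 log2. Epas1, the alpha subunit known for its role in endothelium, had 10.82 and 11.00 in the LPS arrays, against 10.44 and 9.95 in the PBS arrays. These groups did not overlap either, but the PBS arrays were far apart. Its difference of 0.71 log2 (SE 0.159, 95% interval 0.34 to 1.08) was the highest of the 40 and did not pass (adjusted p = 0.0591). Single arrays, left out in turn, moved the difference of Epas1 between 0.47 (without PBS replicate 3) and 0.96 log2 (without PBS replicate 1).

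The remaining genes of oxygen sensing had differences between -0.20 and 0.05 log2, and 0 of 5 passed. Arnt, the stable partner of both alpha subunits, had -0.04 log2 (95% interval -0.27 to 0.19). The prolyl hydroxylase genes Egln1, Egln2 and Egln3 had -0.10, 0.05 and -0.20 log2. Egln3 is itself known as a HIF target, and its LPS arrays (8.59 and 8.28) lay just below its PBS arrays (8.60 and 8.67). Vhl, the substrate receptor of the ligase that removes alpha subunits, had -0.14 log2. Of 11 further HIF regulators, 0 passed in either direction (1 lower and 0 higher at an unadjusted p under 0.05), with a median of -0.03. Among these, the transcriptional coactivator gene Crebbp had -0.17 log2 (adjusted p = 0.483) and Rbx1, the ring subunit of cullin ligases, had 0.11 log2 (adjusted p = 0.731).

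Of 5 transporter genes 1 rose, the glucose transporter gene Slc2a1, and the lactate transporter genes did not pass. Slc2a1, the transporter of basal glucose uptake in many cells, had 10.46 and 10.32 in the LPS arrays, against 9.82 and 9.79 in the PBS arrays. The groups were separated by more than the distance within either. The rise was 0.58 log2 (SE 0.0928, 95% interval 0.37 to 0.80, adjusted p = 0.0148). It ranged from 0.51 to 0.65 log2 when single arrays were left out. Slc2a6, a transporter known from activated macrophages, had 10.15 and 10.12 in the LPS arrays, against 9.86 and 9.55 in the PBS arrays. Both LPS arrays were higher, but the difference of 0.42 log2 (SE 0.118) did not pass (adjusted p = 0.118). That difference lay between 0.27 and 0.58 log2 with 1 array left out. Slc2a3, a high-affinity transporter of leukocytes and neurons, had 0.07 log2 with overlapping groups. The lactate transporters Slc16a3 and Slc16a1 had -0.21 and -0.15 log2, and neither passed. In Slc16a1 the LPS arrays lay below the PBS arrays. In Slc16a3 LPS replicate 1 and PBS replicate 3 were both at 9.58 and differed only in the last deposited decimals, so that its place among the 13 genes with lower LPS arrays, counted with no tolerance, is in effect a tie. Monocyte and macrophage markers, given beside the macrophage transporter Slc2a6, had mean log2 levels of 9.75 and 9.70 in the LPS arrays and 10.15 and 10.19 in the PBS arrays. Among 9 of them the median difference was only -0.09 log2, with 3 positive and 6 negative values. Adgre1 rose (0.56 log2), while C1qb had 0.06 and Cd68 -0.03. The scavenger and mannose receptor genes Cd163 (-2.41 log2) and Mrc1 (-1.72 log2) fell and weigh heavily on the means. The part of these cells in Slc2a6 was not tested.

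**Figure D2:**
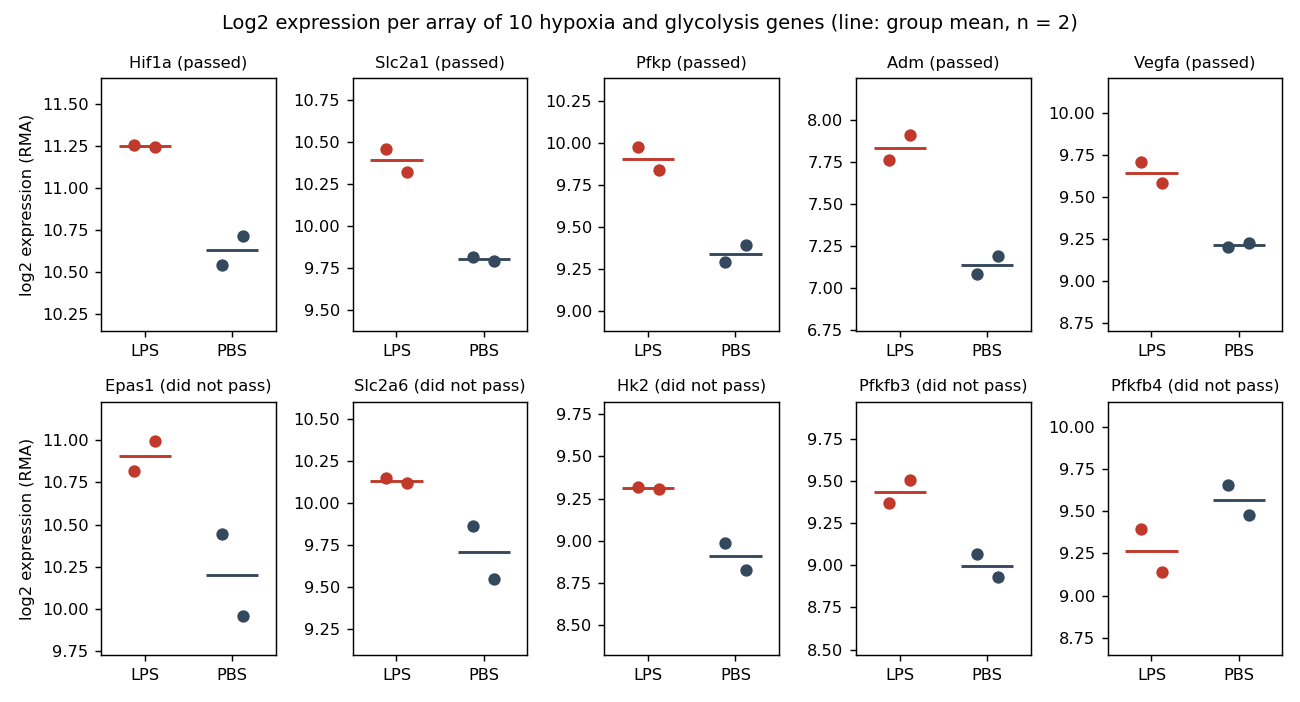
Log2 expression on each of the 4 arrays for 10 genes, with LPS left of PBS in each panel; points are arrays and lines group means (n = 2 each), and every panel spans the same log2 range. In the upper row, the 5 genes that passed, both LPS points lie above both PBS points, and in the lower row Epas1 has the widest pair of PBS points, 10.44 and 9.95.

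Of 12 measured glycolytic enzyme genes, 1 rose, Pfkp, and 0 fell. Pfkp encodes the platelet-type isoform of phosphofructokinase, the main control point of glycolysis, and it is also expressed in leukocytes. It had 9.97 and 9.84 in the LPS arrays, against 9.29 and 9.40 in the PBS arrays. The groups were clearly apart, by 0.56 log2 (SE 0.0961, 95% interval 0.34 to 0.79), or 1.48-fold (adjusted p = 0.0204). Leaving out single arrays moved the rise of Pfkp between 0.50 and 0.63 log2. Hk2, the inducible hexokinase, came next with 9.32 and 9.31 in the LPS arrays, against 8.99 and 8.83 in the PBS arrays. Its groups did not overlap, but the difference of 0.40 log2 (SE 0.0949, adjusted p = 0.0704) did not pass. The range with 1 array left out was 0.32 to 0.48 log2.

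Isoforms of the same step had differences of opposite sign, although no difference between isoforms was tested. At the hexokinase step, Hk2 stood at 0.40 log2, the housekeeping isoform Hk1 at 0.03 and the myeloid isoform Hk3 at -0.18. For phosphofructokinase, Pfkp stood at 0.56, the liver-type isoform Pfkl at 0.34 (adjusted p = 0.121) and the muscle-type isoform Pfkm at -0.22 (adjusted p = 0.374). Both LPS arrays of Pfkl lay above both PBS arrays, and those of Pfkm lay below. The neuronal enolase isoform Eno2, a known HIF target, had 0.38 log2 (adjusted p = 0.0931), and the muscle isoform Eno3 had -0.35 (adjusted p = 0.11).

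The enzymes of the common trunk of the pathway differed little. Aldoa, an aldolase gene, had 0.03 log2 (95% interval -0.20 to 0.25), Tpi1, triose-phosphate isomerase, 0.04, Pgk1, phosphoglycerate kinase, 0.13, and Pgam1, phosphoglycerate mutase, -0.05. Ldha, which makes lactate from pyruvate, had 12.51 and 12.38 in the LPS arrays, against 12.17 and 12.38 in the PBS arrays. Its groups overlapped, with a difference of 0.17 log2 (95% interval -0.08 to 0.42, adjusted p = 0.528). Pgk1 and Pgam1 had 3 probe sets each and Hk1 had 2. For Pgk1 and Pgam1, 2 of the 3 carried identical values, so signal of the gene and of near-identical copies cannot be told apart there. The 2 identical probe sets of Pgam1 had 0.02 log2, against -0.05 for the probe set used.

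Among 12 further glycolytic enzyme and isoform genes, 0 rose and 1 fell, with a median of -0.17 and 9 negative values. The fall was that of Ldhb, the lactate dehydrogenase subunit of oxidative tissues. Ldhb had 7.94 and 7.80 in the LPS arrays, against 8.28 and 8.53 in the PBS arrays, a difference of -0.54 log2 (SE 0.113, adjusted p = 0.0485). Both LPS arrays were lower, but the adjusted p lay just under the threshold. Without single arrays the difference lay between -0.66 and -0.41 log2. Pklr, the red cell and liver pyruvate kinase, had -0.46 log2 and the widely expressed Pkm 0.07, and neither passed.

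**Figure D3:**
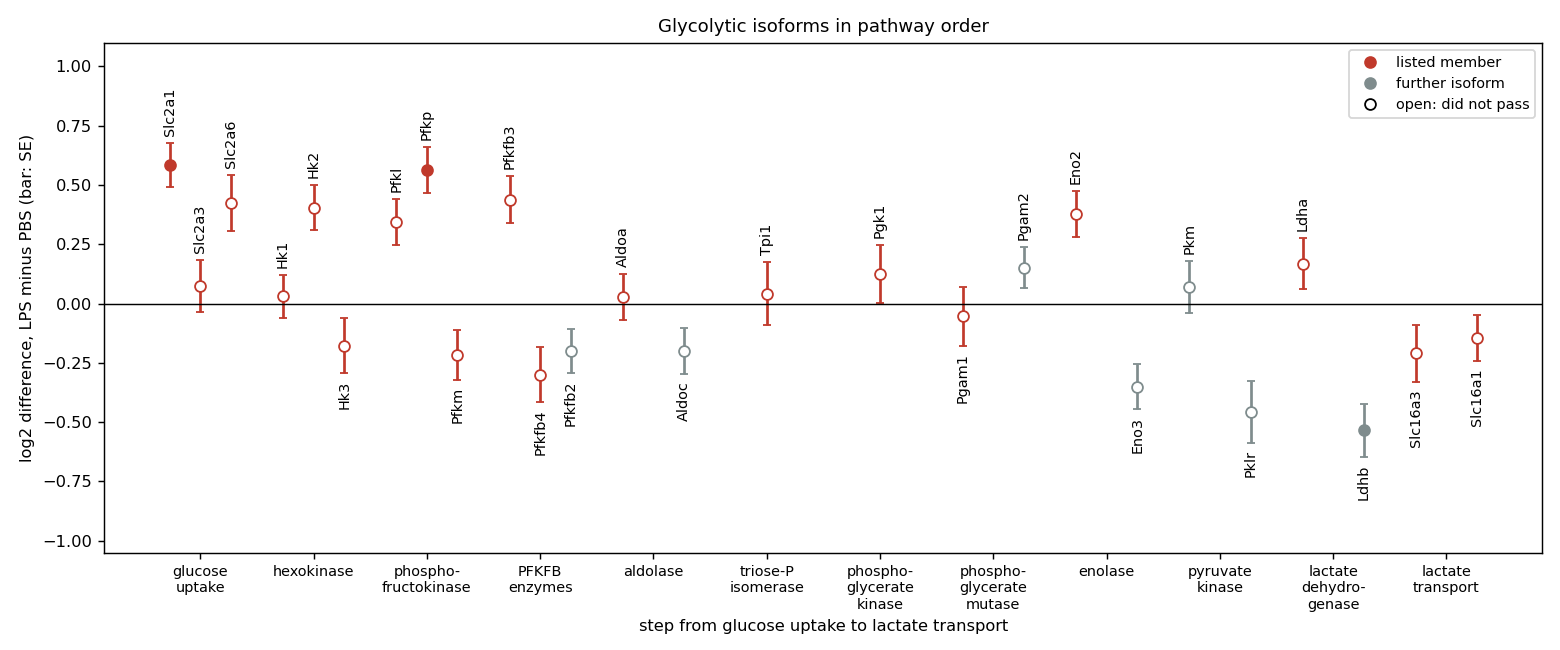
Log2 difference, LPS minus PBS, of glycolytic isoforms in the order of the pathway, from glucose uptake to lactate transport; bars are standard errors of the limma fit, red marks listed genes, grey further isoforms, and filled points passed. Slc2a1 (0.58) and Pfkp (0.56) are the filled rises near the start and Ldhb (-0.54) the filled fall near the end.

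Regulators of glycolytic flux did not pass, with 0 of 3 in either direction (1 higher and 1 lower at an unadjusted p under 0.05). Pfkfb3 and Pfkfb4 encode bifunctional enzymes that set the level of the sugar phosphate activating phosphofructokinase. Pfkfb3 had 9.37 and 9.51 in the LPS arrays, against 9.07 and 8.93 in the PBS arrays. The difference of 0.44 log2 (SE 0.0991, adjusted p = 0.0616) lay between 0.37 and 0.51 when single arrays were left out. Pfkfb4 ran the other way, with 9.39 and 9.14 in the LPS arrays and 9.65 and 9.48 in the PBS arrays, at -0.30 log2 (SE 0.117, adjusted p = 0.26). Neither pair of groups overlapped. Pdk1, a kinase that restrains entry of pyruvate into mitochondria, had -0.19 log2 (adjusted p = 0.347).

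The lists for mitochondrial pyruvate use and for the pentose phosphate pathway, a branch from early glycolysis, held no gene that passed. Of 10 genes of pyruvate dehydrogenase and its kinases, 0 passed (1 higher and 0 lower at an unadjusted p under 0.05), with a median of 0.04. Pdk3 had 0.17 log2 and Pdha1 0.08. Of 17 tricarboxylic acid cycle genes, 0 passed, also at an unadjusted p under 0.05, and 13 were negative around a median of -0.05; Idh3g had -0.16 and Mdh2 -0.04. Of 7 pentose phosphate genes, 0 passed (1 higher and 1 lower at an unadjusted p under 0.05) around a median of -0.09, with Pgd at -0.09 and Tkt at -0.22.

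Of 13 other hypoxia targets, 2 rose, Adm and Vegfa, and 0 fell. Adm had 7.76 and 7.91 in the LPS arrays, against 7.08 and 7.19 in the PBS arrays. The groups were well apart, by 0.70 log2 (SE 0.0979, 95% interval 0.47 to 0.92), or 1.62-fold (adjusted p = 0.00814). Without single arrays the rise of Adm lay between 0.62 and 0.77 log2. Vegfa had 9.70 and 9.58 in the LPS arrays, against 9.20 and 9.23 in the PBS arrays. Both LPS arrays were higher, by 0.43 log2 (SE 0.0917, 95% interval 0.22 to 0.64), or 1.35-fold. Its adjusted p of 0.0495 lay at the threshold. When single arrays were left out, the rise of Vegfa lay between 0.37 and 0.49 log2.

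Endothelial markers are given beside Epas1, Adm and Vegfa, which endothelium is known to make or answer to. Of 10 endothelial markers 1 rose and 2 fell, with a median of 0.09, and their mean log2 level was 9.28 and 9.26 in the LPS arrays and 9.31 and 9.33 in the PBS arrays. Egfl7 rose by 0.59 log2, and the receptor genes Tek (-0.89) and Stab2 (-1.26) fell. Pecam1 had 0.11 log2 and Emcn 0.52, and neither passed. The part of endothelial cells in these 3 genes was not tested. In bulk marrow, fewer cells of a type and less RNA per cell cannot be told apart.

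The remaining 11 hypoxia targets did not pass, and they ran in both directions. Lower in both LPS arrays were Mxi1, a Myc antagonist (-0.35 log2, and -0.50 to -0.19 with 1 array left out), and Kdm3a, a histone demethylase (-0.22). So were Bnip3l, a receptor for the removal of mitochondria (-0.19), Higd1a, a mitochondrial protein (-0.13), the carbonic anhydrase gene Car9 (-0.12) and Ndrg1 (-0.06). Bnip3, which has the same kind of role as Bnip3l, had 0.22 log2, with a second probe set at -0.04. Ddit4, an inhibitor of mTOR signalling, had -0.02 and Ankrd37 -0.01, both with overlapping groups. Higd1a had 2 probe sets with values of opposite sign, -0.13 and 0.12.

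Bnip3l clears mitochondria from maturing red cells, and erythroid markers are given beside it. It had 12.97 and 12.98 in the LPS arrays, against 13.15 and 13.19 in the PBS arrays, and its 2 probe sets had -0.19 and -0.21 log2. Of 9 measured erythroid markers 0 passed, all had negative values, and the median was -0.23. Their mean log2 level was 11.87 and 11.95 in the LPS arrays and 12.20 and 12.03 in the PBS arrays, with Car2 at -0.09 and Slc4a1 at -0.18. Neutrophil markers, which bear on the myeloid isoform Hk3, had 0 rises and 1 fall (Retnlg, -0.76 log2) among 12 and a median of -0.22. Their mean log2 level was 12.69 and 12.52 in the LPS arrays and 12.89 and 12.77 in the PBS arrays, while Ngp had 0.00 and S100a8 -0.07. Negative medians were not particular to these lineages. The B cell list had -0.23, and the T and natural killer cell list had -0.22, although its marker Prf1 rose (0.50 log2). The part of erythroid cells and neutrophils in the values of Bnip3l and Hk3 was not tested.

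P4ha1 and P4ha2, subunits of the enzyme that hydroxylates prolines in collagen, followed a split between the PBS arrays. P4ha1 had 9.97 and 9.81 in the LPS arrays, against 9.28 and 9.64 in the PBS arrays (0.43 log2, SE 0.134, adjusted p = 0.161). P4ha2 had 7.41 and 7.46 in the LPS arrays, against 6.90 and 7.33 in the PBS arrays (0.32 log2, SE 0.141, adjusted p = 0.33). In both genes PBS replicate 1 was the lowest array and PBS replicate 3 lay near the LPS arrays. Without PBS replicate 3 the differences were 0.61 and 0.54 log2, and without PBS replicate 1 they were 0.25 and 0.10. Type I collagen showed the same low array: Col1a1 had 13.02 and 12.90 in the LPS arrays, against 11.99 and 13.33 in the PBS arrays. Col1a2 had 12.28 and 12.16 in the LPS arrays and 11.16 and 12.74 in the PBS arrays. Mesenchymal stroma markers as a list had mean log2 levels of 10.40 and 10.43 in the LPS arrays and 10.27 and 10.75 in the PBS arrays. Among 9 of them there were 0 rises and 1 fall (Lepr, -0.59 log2). The low array was not shared by the whole list. Col3a1 and Pdgfrb were also lowest in PBS replicate 1, while Cxcl12, Lepr, Adipoq, Kitl and Lpl were not. The part of stromal cells in P4ha1 and P4ha2 was not tested.

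**Figure D4:**
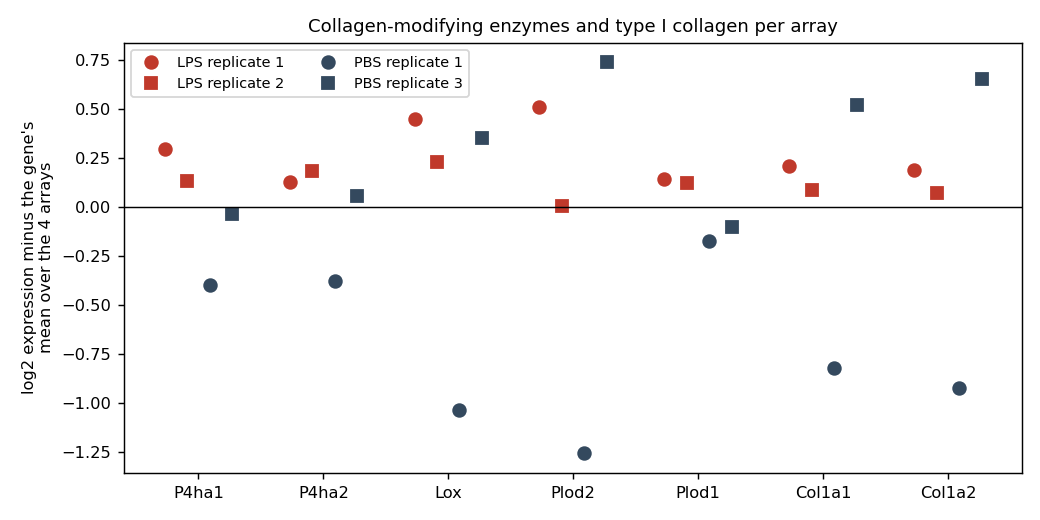
Log2 expression minus the mean of the gene over the 4 arrays, for collagen-modifying enzymes and type I collagen; red marks the LPS arrays and dark blue the PBS arrays. PBS replicate 1 is the lowest array for every gene shown, from Plod1 with the smallest gap to Plod2, which had 7.96 there and 9.95 in PBS replicate 3.

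Glycolytic enzymes and other hypoxia targets were compared as groups. The median log2 difference was 0.08 over the 12 glycolytic enzymes and -0.02 over the 13 other hypoxia targets, a difference of 0.11. Left out in turn, single arrays moved this difference between 0.03 (without LPS replicate 1) and 0.27 (without PBS replicate 3). Positive values numbered 9 of 12 among glycolytic enzymes and 5 of 13 among other hypoxia targets, against 9468 of all 19938 genes. The signs of Hk1, Aldoa, Tpi1, Pgk1 and Pgam1, and of Ankrd37 and Ddit4 among the other targets, turned when an array was left out. In the 2 groups 1 and 2 genes rose, or 8.33% and 15.4%, against 2.39% of all genes. Groups did not overlap in 5 of 12 glycolytic enzymes and in 11 of 13 other targets, 5 of these above and 6 below, or 41.7% and 84.6%, against 44.9% of all genes. Set against the mean of a gene over the 4 arrays, the median glycolytic enzyme stood at 0.15 and 0.02 in LPS replicates 1 and 2 and at -0.10 and -0.01 in PBS replicates 1 and 3. The median of the other hypoxia targets stood at -0.03 and 0.02 in the LPS arrays and at -0.01 and 0.05 in the PBS arrays. The LPS replicates differed by about as much as the groups did among the enzymes, and the lists were not set against each other by a test.

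Further hypoxia targets outside the 42 included 6 that rose. These were 6 of 27 measured, or 22.2%, against 2.39% of all genes, while 0 fell, and the median was 0.09. With every probe set in the fit, 3 genes over all the further lists rose. The list had been written with earlier results for some of these genes known, so its count is a description. Angptl4, an inhibitor of lipoprotein lipase named in the title of the study, rose by 1.07 log2 (SE 0.138, adjusted p = 0.0052). Nos2, the inducible nitric oxide synthase, had 8.06 and 8.19 in the LPS arrays, against 7.02 and 7.14 in the PBS arrays, a rise of 1.05 log2 (SE 0.096, adjusted p = 0.000906). Edn1, the vasoconstrictor endothelin, had 7.42 and 7.50 in the LPS arrays, against 6.58 and 6.49 in the PBS arrays, a rise of 0.92 log2 (SE 0.0913, adjusted p = 0.00137). Both PBS arrays of Edn1 lay under the lower quartile of their array, so that the size of its rise is uncertain. The other rises were those of Plin2 (0.75), Errfi1 (0.73) and Ak4 (0.66), named after their values were seen. A second, dimmer probe set of Ak4 had only 0.22 log2.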

How the data were processed

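Bone marrow RNA of 2 LPS-treated and 2 PBS-treated samples was measured on 4 arrays. The authors deposited log2 values per probe set made with RMA, per the submitters' processing notes; the sources used here give no version of it. The scale was read from the values, 2.76 to 14.52. Of 35556 probe sets, 21789 had 1 gene symbol in the platform annotation, 1621 had several and 12146 none here. Only those with 1 symbol were used, and the probe set with the highest mean stood for a gene with several, which left 19938 genes. Low values were kept. LPS and PBS were compared with limma 3.58.1 in R 4.3.3 (lmFit, eBayes, two-sided, no covariate), with p-values adjusted by the Benjamini-Hochberg method over all genes. There were 2 residual and 5.595 prior degrees of freedom, and the number of arrays limits the precision. An exact permutation test of 2 against 2 cannot give a p below 0.333, so none was run. The fit was tested on simulated data. Figures were drawn with matplotlib 3.10.9.

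The members and lists were chosen with earlier results of these data known, so counts of members are descriptions and no p over a list was computed. Values per array are given for members that passed and for the 2 with the largest differences of each role; of further lists, up to 3 changed genes each way were named, or the 2 with the highest mean. Other members, isoforms, markers and collagen genes given by name were picked after their values were seen. All 40 measured members matched the RefSeq gene table (GRCm38.p6) by Entrez identifier. Promoters were searched for the hypoxia core and for the NF-kappaB motif in the 250 bases before the start. Alternatives changed the variance model, the probe set rule, the features in the fit, a filter, the scaling, array weights and the arrays included. Batch information was not used here.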

Additional observations from a re-analysis of the deposited data

How the results depend on the processing

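Without limma's moderation of the variance 0 members, 0 genes of every role, 0 further pathway genes and 0 of all genes passed in either direction, while 8 members were higher and 3 lower at an unadjusted p under 0.05. With every probe set in the fit, 0 members and 0 genes of every role passed in limma, with 12 members higher at an unadjusted p under 0.05. In that fit 3 further pathway genes were higher and 0 were lower. Of all 35556 probe sets 355 were higher and 63 lower, against 476 and 254 of the 19938 genes in the main fit. Epas1 passed as well under an intensity trend with robust moderation (6 members higher), with arrays centred on their medians (6) and with array weights (5), so that 2 oxygen-sensing genes were higher under each. Array weights left out Vegfa (adjusted p = 0.0506), so that 1 other hypoxia target was higher. With probe sets averaged per gene, Ldhb missed (adjusted p = 0.0592) and 0 further pathway genes were lower. In that fit 5 further pathway genes were higher, against 6 in the main fit. The cause of these changes was not tested.

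Leaving out single arrays gave 3 to 8 members higher and 0 to 1 lower. By role, 1 to 2 oxygen-sensing genes, 0 to 2 transporters, 0 to 2 glycolytic enzymes, 0 to 1 flux regulators and 1 to 3 other hypoxia targets were higher, 0 to 1 other hypoxia targets lower, and 0 to 1 further pathway genes lower. Over all genes 127 to 423 were lower. The median ranged from 0.022 to 0.25 log2 for glycolytic enzymes, from -0.098 to 0.018 for other hypoxia targets and from -0.0072 to 0.031 for all members, and the difference of the role medians from 0.031 to 0.27. Of the genes that did not pass, some turned sign when an array was left out: Arnt between -0.12 and 0.043, Egln1 between -0.22 and 0.018, Slc2a3 between -0.026 and 0.17, Hk1 between -0.016 and 0.076, Aldoa between -0.064 and 0.12, Tpi1 between -0.15 and 0.24, and Pgk1 between -0.023 and 0.27, Pgam1 between -0.23 and 0.12, Ankrd37 between -0.075 and 0.058, Ddit4 between -0.15 and 0.11, Pdha1 between -0.0095 and 0.18 and Rbx1 between -0.032 and 0.26. Hif1a kept a rise of at least 0.53 log2, and Adm of at least 0.62, when 1 array was left out. No paired analysis was made, because the labels name no pairing between LPS and PBS samples. The 2 samples per group limit every value here, and signal near the lower quartile limits the size of changes in dim genes such as Edn1.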

Other observations

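Some further genes of the lists had wide differences between the PBS arrays. Pdk4, a kinase that restrains pyruvate dehydrogenase in fasting, had 8.87 and 9.10 in the LPS arrays, against 7.72 and 8.55 in the PBS arrays, and its difference of 0.85 log2 did not pass. Lox, the enzyme that crosslinks collagen, had 10.24 and 10.02 in the LPS arrays, against 8.75 and 10.14 in the PBS arrays, and Plod2, a lysyl hydroxylase of collagen, had 9.72 and 9.22 in the LPS arrays, against 7.96 and 9.95 in the PBS arrays. In Lox and Plod2, as in Col1a1 and Col1a2, PBS replicate 1 was the lowest array. Among the measured genes that rose, 152 of 357 promoters held the hypoxia core, or 42.6%, against 46.3% of all measured genes, and 55 of 357 held the NF-kappaB motif, or 15.4%, against 7.87%.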
